A study of Mus musculus with 24 samples.

Results

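The comparison described here sets bone marrow LSK cells that lack Fancg and carry an Mdm4 transgene (FancgKO_Mdm4Tg, replicates 2, 7 and 8) against LSK cells that lack Fancg without the transgene (FancgKO, replicates 2, 4, 6 and 7). LSK cells are the lineage-negative, Sca-1-positive, Kit-positive fraction that holds blood stem cells and the earliest progenitors. These 7 of the 24 RNA-seq libraries of the series were picked by genotype and treatment, with no measured value used. All 7 come from animals that received PBS, so both groups share the Fancg deletion and the vehicle. The other 17 libraries are wild-type, Mdm4Tg or poly(I:C)-treated. The labels give no age, sex or strain, no promoter or copy number for the transgene, and no statement that replicates are separate animals. A p-value here therefore speaks only for the spread among libraries, which may be technical. That spread was estimated over all 24 libraries and not over the 7 alone. The comparison covers the 12628 of 26267 genes with a normalised count of at least 10 in at least 2 of the 24 libraries.

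Mdm4 encodes a relative of the ubiquitin ligase Mdm2, and both bind p53 and hold it in check. Mdm4 binds the activation domain of p53 and forms heterodimers with Mdm2, which marks p53 for degradation and is itself a p53 target gene. When DNA damage releases p53 from this pair, it switches on genes for growth arrest, repair and apoptosis. Fancg belongs to the core complex of the Fanconi anaemia pathway, a ubiquitin ligase that modifies the FANCD2-FANCI pair at DNA crosslinks. In bone marrow that lacks this pathway, p53 is known to limit stem and progenitor cells.

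The FancgKO_Mdm4Tg libraries held 949156, 2865682 and 1406126 reads, and the FancgKO libraries held 1567118, 1382056, 1728839 and 807686 reads, against a median of 2583130 in the series. Xist, the RNA that coats the inactive X chromosome, was at 0, 1.72 and 0 in FancgKO_Mdm4Tg and at 1.57, 0, 7800 and 18007 in FancgKO. The Y-linked Ddx3y was at 560, 354 and 502 in FancgKO_Mdm4Tg and at 539, 529, 219 and 6.53 in FancgKO, so FancgKO replicate 6 carried both kinds of transcript. Library names end in d (FancgKO_Mdm4Tg replicate 7, FancgKO replicates 6 and 7) or d_2 (the other 4), and the labels do not say what this suffix stands for. Both libraries with high Xist are FancgKO libraries with suffix d, so genotype, sex and suffix overlap in part. The median of each list below is therefore also given for the 5 low-Xist libraries (Xist under 100) and for the 4 libraries with suffix d_2, a set chosen after the data were seen. In the low-Xist set both FancgKO libraries end in d_2, whereas FancgKO_Mdm4Tg replicate 7 ends in d. Suffix and genotype therefore still overlap in that set, and its medians are not free of the suffix. Transcript counts do not check a sort gate set on surface proteins, so the values of its genes are given as counts only. Kit, the stem cell factor receptor used to sort, was at 1710, 2042 and 2071 in FancgKO_Mdm4Tg and at 1869, 1895, 1762 and 1842 in FancgKO. Ly6a, which encodes Sca-1, was low in both, at 34.5, 20.7 and 44.2 in FancgKO_Mdm4Tg and 34.5, 24.2, 11.7 and 32.7 in FancgKO. Of the 17 measured genes in the sort gate and surface marker list, only the lineage markers Cd3e and Ly6g were at 0 in all 7 libraries. Of the 14 tested, 8 were higher and 6 lower in FancgKO_Mdm4Tg, with a median log2 difference of 0.04. That median was 0.00 in the low-Xist libraries and -0.01 among the d_2 libraries.

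Mdm4 was the transcript that set the groups apart. Its normalised count was 6908, 5799 and 5969 in FancgKO_Mdm4Tg and 1142, 1293, 895 and 934 in FancgKO. The lowest transgenic library lay far above the highest library without the transgene. The means were 6225 ± 597 in FancgKO_Mdm4Tg (SD, n = 3) and 1066 ± 186 in FancgKO (SD, n = 4). The log2 difference was 2.56 ± 0.14 (SE), a 5.88-fold higher level with a 95% interval of 4.83 to 7.17 (limma adjusted p = 6.09e-11). Among the libraries with suffix d_2 the log2 difference was 2.40 (n = 2 and 2), and among those with suffix d it was 2.66 (n = 1 and 2). Mdm4 (ENSMUSG00000054387) lies on the minus strand of chromosome 1 at 132959484 to 133030561 in mm10. A processed pseudogene, Mdm4-ps, was at 15.9, 5.17 and 10.2 in FancgKO_Mdm4Tg and at 0, 7.45, 0 and 0 in FancgKO (2.63 ± 0.74, SE; limma adjusted p = 0.931). Reads that fit both copies cannot be assigned from these counts, so the pseudogene's values are uncertain, and it was named after they were seen.

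Across all genes Mdm4 was the only call: limma called 1 of 12628 genes (0.00792%) at an adjusted p under 0.05. At an unadjusted p under 0.05 there were 564 genes (4.47%), of which 249 (1.97%) were higher and 315 (2.49%) were lower in FancgKO_Mdm4Tg. Libraries of the groups did not overlap for 200 genes in the higher direction (1.58%) and for 193 in the lower direction (1.53%). The log2 difference was positive for 51.1% of genes and negative for 48.9%, with a median of 0.01. The smallest limma adjusted p of any other gene was 0.345, for 3110009E18Rik, which is named here after its values were seen. The normalised count of 3110009E18Rik was 13.3, 17.2 and 17.0 in FancgKO_Mdm4Tg and 1.57, 5.59, 4.38 and 0 in FancgKO, so the groups did not overlap at this low level. edgeR on the recovered reads also called 1 gene. DESeq2 called 2 (0.0158%), and the second was Xist, at -13.22 (DESeq2 adjusted p = 0.0123), which rests on the 2 FancgKO libraries with high Xist. The precision limits what such a comparison can show: among the 7296 genes with a mean normalised count of at least 50 the median standard error of the log2 difference was 0.20, and over all genes the median 95% interval reached 0.54 to either side.

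**Figure D1:**
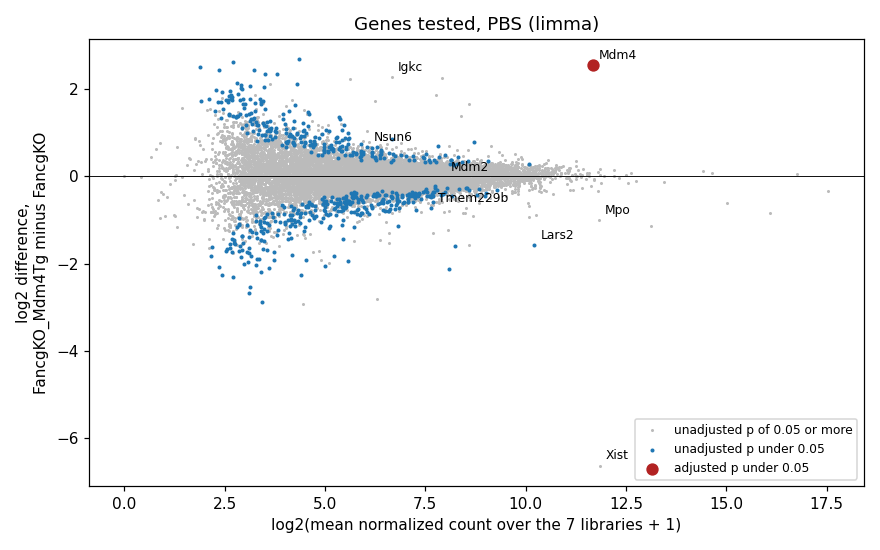
Log2 difference (FancgKO_Mdm4Tg minus FancgKO, limma) on the vertical axis against log2 of the mean normalised count over the 7 libraries plus 1 on the horizontal axis, with a point per gene tested. Mdm4, at 2.56, is the only gene at an adjusted p under 0.05 (large red point), and the 564 genes at an unadjusted p under 0.05 (blue) lie on both sides of 0.

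No other gene near Mdm4 was called. Within 500 kb of Mdm4, 9 other genes were tested, and all 9 had a positive log2 difference, against 51.1% of all genes. The groups overlapped for each of the 9. Rbbp5, a subunit of histone H3 lysine methyltransferase complexes, was at 231, 150 and 224 in FancgKO_Mdm4Tg and at 168, 175, 200 and 167 in FancgKO (log2 difference 0.16 ± 0.15, SE). Ppp1r15b, a regulator of the phosphatase that acts on eIF2 alpha, was at 485, 455 and 510 in FancgKO_Mdm4Tg and at 392, 412, 478 and 412 in FancgKO (0.19 ± 0.12, SE). Pik3c2b, a class II phosphoinositide kinase, was at 66.3, 56.9 and 44.2 in FancgKO_Mdm4Tg and at 43.9, 55.9, 52.6 and 32.7 in FancgKO (0.28 ± 0.28, SE). Gm29257, a processed pseudogene that lies inside the Mdm4 interval on the opposite strand, at 133025801 to 133026439, was at 13.3, 11.2 and 6.80 in FancgKO_Mdm4Tg and at 0, 3.73, 7.30 and 0 in FancgKO (2.15 ± 0.72, SE; limma adjusted p = 0.931). Since the strand setting of the counting is not given, reads of Mdm4 and Gm29257 cannot be told apart there. The other 5 genes, which had mean counts of 26.4 or less over the 7 libraries, had log2 differences of 0.31 to 1.04. These genes were picked by position and not by the rule that names other genes.

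The Mdm4 effect was set beside the same contrast on the wild-type background and after poly(I:C), which share no library with it. The log2 difference in Mdm4 was 2.56 on FancgKO with PBS, 2.90 for Mdm4Tg against WT with PBS, and 2.64 for FancgKO_Mdm4Tg against FancgKO after poly(I:C). The effect on FancgKO minus that on WT was -0.34 ± 0.20 (SE; limma adjusted p = 1.00). The effect with PBS minus that with poly(I:C) was -0.08 ± 0.21 (SE; limma adjusted p = 1.00). Over all genes limma called 0 for the difference between backgrounds, where 265 had an unadjusted p under 0.05; edgeR and DESeq2 called 0 as well, where 197 and 140 did. For the difference between treatments limma called 0 and 102 genes had an unadjusted p under 0.05; in edgeR and DESeq2 these numbers were 0 and 84, and 0 and 64.

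Promoters of 4 p53 target genes are printed because their own windows hold a match to the p53 consensus response element. Whether the transcripts of these 4 genes report p53 activity in these cells was not tested. Of the 45 p53 targets in the lists used here, 37 had a promoter window in the RefSeq table for GRCm38.p6 (250 bases before to 50 after the annotated start). The windows were searched for the consensus, which is a pair of 10-base palindromic units with no spacer, so that both strands read alike. The C and G core of each unit had to be kept, and at most 1 of the other bases could differ. A match was present for 4 of the 37 target genes. Of all 32851 windows, which belong to 27025 genes, 22 (0.067%) held a match, a share per window and not per gene. A match is a description of letters only, and a window without a match says nothing about p53 there. Each line gives the strand of the gene read from 5′ to 3′, with the matched 20 bases in capitals.
Cdkn1a, chr17:29090888-29090987, plus strand: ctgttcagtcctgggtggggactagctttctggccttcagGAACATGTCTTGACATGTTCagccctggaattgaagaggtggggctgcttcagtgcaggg
Ccng1, chr11:40755422-40755521, minus strand: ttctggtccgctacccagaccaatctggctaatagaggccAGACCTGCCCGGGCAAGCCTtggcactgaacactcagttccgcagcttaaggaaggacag
Rps27l, chr9:66946256-66946355, plus strand: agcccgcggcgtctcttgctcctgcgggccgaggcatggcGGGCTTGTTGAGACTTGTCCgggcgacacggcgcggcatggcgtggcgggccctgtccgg
Gtse1, chr15:85859905-85859995, plus strand: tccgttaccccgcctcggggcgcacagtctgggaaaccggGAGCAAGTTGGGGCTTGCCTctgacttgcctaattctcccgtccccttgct

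None of these 4 genes passed the test. Cdkn1a encodes p21, the inhibitor of cyclin-dependent kinases through which p53 arrests the cycle. It was at 29.2, 37.9 and 23.8 in FancgKO_Mdm4Tg and at 23.5, 57.7, 54.0 and 26.1 in FancgKO. Its log2 difference was -0.32 ± 0.44 (SE), and all 3 transgenic libraries lay within the FancgKO range. Ccng1, which encodes cyclin G1, was at 334, 251 and 299 in FancgKO_Mdm4Tg and at 318, 360, 318 and 301 in FancgKO (-0.14 ± 0.19, SE). Rps27l, a ribosomal protein paralogue induced by p53, was at 223, 130 and 111 in FancgKO_Mdm4Tg and at 141, 184, 225 and 209 in FancgKO (-0.34 ± 0.28, SE). FancgKO_Mdm4Tg replicates 7 and 8 were below all FancgKO libraries for Rps27l, and replicate 2 was not. Gtse1, which encodes a p53-binding protein of the G2 and S phases, was at 42.4, 46.6 and 44.2 in FancgKO_Mdm4Tg and at 26.6, 35.4, 87.6 and 75.1 in FancgKO (-0.17 ± 0.33, SE). It was added for its sequence after its values were seen. The adjusted p of the 4 genes was 0.931 or more in limma.

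**Figure D2:**
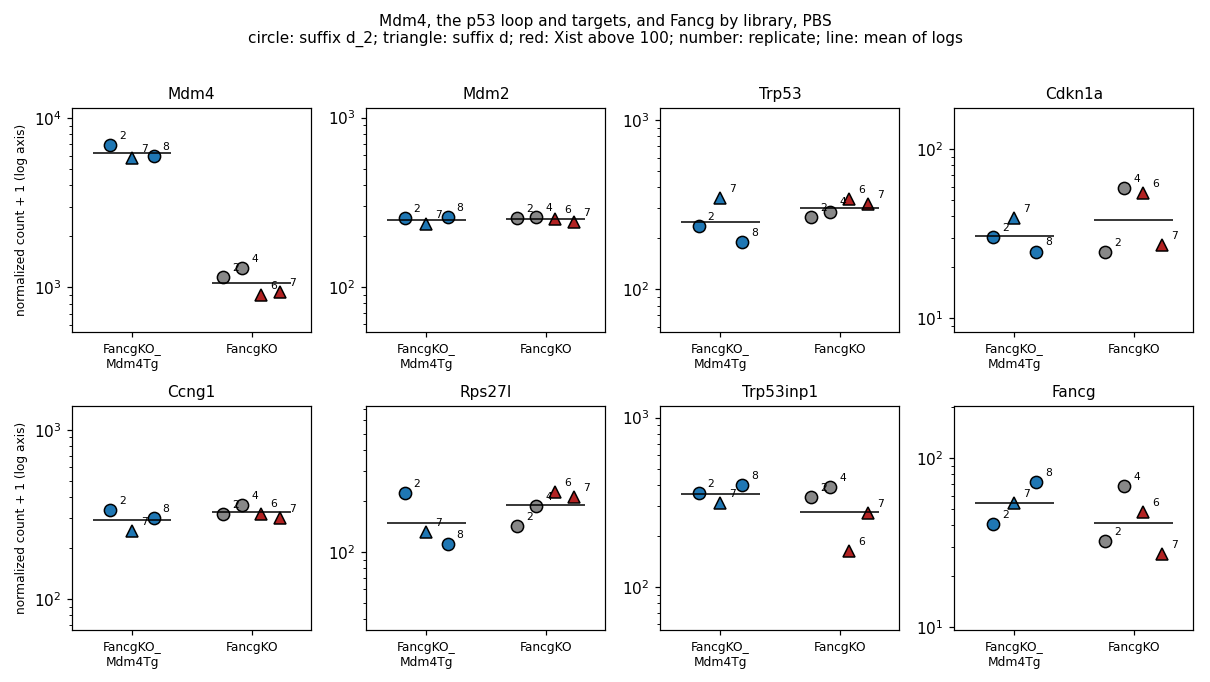
Normalised count plus 1 (log axis) of 8 genes in the 3 FancgKO_Mdm4Tg libraries (left) and the 4 FancgKO libraries (right), with replicate numbers beside the points, circles for suffix d_2, triangles for suffix d, red for Xist above 100 and lines at the mean of the logs. Mdm4 separates the groups, Mdm2 lies between 235 and 259 in all 7 libraries, and the groups overlap for the other genes.

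The regulators around p53 did not follow Mdm4. Of 15 genes in the p53 regulatory loop list 13 were tested, with 7 (Mdm4 among them) higher and 6 lower in FancgKO_Mdm4Tg and a median log2 difference of 0.01, against 0.01 over all genes. The list's median was -0.05 in the low-Xist libraries and -0.03 among the d_2 libraries. Mdm2, the partner ligase and a p53 target, was at 255, 235 and 257 in FancgKO_Mdm4Tg and at 255, 259, 251 and 242 in FancgKO. Its ratio was 0.987 with a 95% interval of 0.814 to 1.20. Trp53, which encodes p53, was at 236, 343 and 189 in FancgKO_Mdm4Tg and at 266, 287, 339 and 317 in FancgKO (-0.28 ± 0.18, SE; limma adjusted p = 0.931). FancgKO_Mdm4Tg replicates 2 and 8 were the lowest of the 7 libraries for Trp53, and replicate 7 was the highest. Kat5, an acetyltransferase that modifies p53, was at 31.8, 77.6 and 51.0 in FancgKO_Mdm4Tg and at 70.5, 54.0, 74.5 and 78.4 in FancgKO (-0.44 ± 0.23, SE; limma adjusted p = 0.931). Usp7, the deubiquitinase of Mdm2 and Mdm4, had a log2 difference of 0.01 ± 0.10 (SE). Ppm1d, the p53-induced phosphatase, was at 76.9, 65.5 and 104 in FancgKO_Mdm4Tg and at 59.5, 91.3, 86.2 and 91.5 in FancgKO (-0.01 ± 0.17, SE). Usp7 and Ppm1d were named for their roles after their values were seen.

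The p53 target genes lay slightly below 0 without a call. Of the 40 targets tested, 16 were higher and 24 lower in FancgKO_Mdm4Tg, with a median log2 difference of -0.13, and 0 reached an unadjusted p under 0.05 (the smallest was 0.057). Only 19 of the 40 had a mean normalised count of at least 50. Targets for arrest and repair (26 of 30 tested) had a median of -0.12, with 10 higher and 16 lower. That median was -0.04 in the low-Xist libraries and -0.05 among the d_2 libraries. Summed over members, the arrest and repair targets came to 2450, 2595 and 2431 in FancgKO_Mdm4Tg and to 2357, 2701, 2584 and 2623 in FancgKO. Targets for apoptosis (14 of 15 tested) had a median of -0.13, with 6 higher and 8 lower. Their median was 0.06 in the low-Xist libraries and 0.00 among the d_2 libraries. Their sum was 888, 981 and 932 in FancgKO_Mdm4Tg and 894, 999, 1044 and 1059 in FancgKO. The sums of the groups overlapped for both lists. In the same lists the median for Mdm4Tg against WT with PBS was -0.19 for arrest and repair and -0.10 for apoptosis, and after poly(I:C) on FancgKO it was -0.04 and -0.02.

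Single targets went both ways. Trp53inp1, a p53 cofactor in stress responses, was at 355, 311 and 400 in FancgKO_Mdm4Tg and at 340, 389, 162 and 271 in FancgKO (0.35 ± 0.33, SE). Rrm2b, the p53-induced subunit of ribonucleotide reductase, was at 92.8, 56.1 and 91.8 in FancgKO_Mdm4Tg and at 81.5, 82.0, 48.2 and 45.7 in FancgKO (0.33 ± 0.29, SE). For both genes the low FancgKO values were those of replicates 6 and 7, the libraries with high Xist and suffix d. Pidd1, which encodes a death domain protein of the PIDDosome, was at 37.1, 62.1 and 45.9 in FancgKO_Mdm4Tg and at 42.3, 48.4, 87.6 and 94.7 in FancgKO (-0.43 ± 0.32, SE). Apaf1, the apoptosome scaffold, was at 247, 292 and 308 in FancgKO_Mdm4Tg and at 299, 296, 329 and 314 in FancgKO (-0.14 ± 0.15, SE). The adjusted p was 0.931 to 0.934 for these 4 genes in limma. Eda2r, a receptor of the tumour necrosis factor family on the X chromosome, was the 1 target of 40 whose groups did not overlap, at 5.30, 8.62 and 8.50 in FancgKO_Mdm4Tg and 15.7, 20.5, 8.76 and 9.80 in FancgKO (-0.74 ± 0.54, SE). That share of targets is near the 1.53% of all genes in the same direction, and the gene was named after its values were seen. Bax and Bbc3, which encode killer proteins of the BCL2 family, had log2 differences of -0.22 ± 0.29 and -0.13 ± 0.40 (SE), at counts of 29.8 or less in every library.

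The lists of Fanconi pathway and homologous recombination genes had medians near 0, and no member was called. Fancg itself was at 39.8, 53.5 and 71.4 in FancgKO_Mdm4Tg and at 31.3, 67.1, 46.7 and 26.1 in FancgKO (0.40 ± 0.25, SE; limma adjusted p = 0.931). The deposited table gives a single total per gene, so reads from outside a deleted part may remain and the counts do not check the knockout. All 20 genes of the Fanconi core and FANCD2-FANCI list were tested, with 8 higher and 12 lower, a range of -0.84 to 0.42 and a median log2 difference of -0.08, which was -0.01 in the low-Xist libraries and -0.05 among the d_2 libraries. Fancd2, the substrate of the core complex, was at 188, 197 and 182 in FancgKO_Mdm4Tg and at 161, 201, 209 and 157 in FancgKO (0.07 ± 0.16, SE). Brip1, a helicase that works with Brca1, was at 257, 204 and 228 in FancgKO_Mdm4Tg and at 230, 203, 186 and 170 in FancgKO (0.22 ± 0.14, SE). Ube2t, the ubiquitin-conjugating partner of the core complex, was at 122, 48.3 and 88.4 in FancgKO_Mdm4Tg and at 90.9, 70.8, 59.9 and 49.0 in FancgKO (0.28 ± 0.24, SE). Of the 26 homologous recombination genes 15 were higher and 11 lower, with a range of -0.80 to 0.60 and a median of 0.05, and with 0.02 and 0.00 in the same sets. Brca2, a tumour suppressor needed for homologous recombination, was at 623, 542 and 672 in FancgKO_Mdm4Tg and at 559, 484, 450 and 421 in FancgKO. Its log2 difference was 0.36 ± 0.15 (SE; limma adjusted p = 0.931), with FancgKO replicate 2 above FancgKO_Mdm4Tg replicate 7. Rmi1, a subunit of the complex that dissolves recombination intermediates, was at 79.6, 48.3 and 73.1 in FancgKO_Mdm4Tg and at 48.6, 48.4, 38.0 and 55.5 in FancgKO (0.46 ± 0.23, SE; limma adjusted p = 0.931).

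Cell cycle lists had medians near 0 whose sign depended on the libraries used. In the DNA replication list 14 of 39 genes were higher and 25 lower, with a median log2 difference of -0.06, and with 0.02 in the low-Xist libraries and -0.01 among the d_2 libraries. Mcm2, a subunit of the replicative helicase, was at 292, 467 and 343 in FancgKO_Mdm4Tg and at 354, 471, 554 and 611 in FancgKO (-0.43 ± 0.21, SE; limma adjusted p = 0.931). In the mitosis list 14 of 35 were higher and 21 lower, with a median of -0.03, and with 0.04 and 0.07 in the same sets. Mki67, the proliferation marker, was at 1944, 2492 and 1680 in FancgKO_Mdm4Tg and at 2018, 2547, 2873 and 2568 in FancgKO (-0.30 ± 0.16, SE). Plk1, a kinase of mitotic entry, was at 50.4, 94.9 and 51.0 in FancgKO_Mdm4Tg and at 64.2, 82.0, 120 and 137 in FancgKO (-0.62 ± 0.25, SE; limma adjusted p = 0.931). For Mki67, Plk1 and Mcm2 the highest FancgKO_Mdm4Tg library was replicate 7, the library with suffix d. Among G1 regulators 13 of 23 were higher and 10 lower, with a median of 0.02, and with -0.03 and -0.05 in the same sets. Cdkn2c, the inhibitor p18 of CDK4 and CDK6, was at 66.3, 58.6 and 88.4 in FancgKO_Mdm4Tg and at 40.7, 50.3, 59.9 and 42.5 in FancgKO (0.54 ± 0.23, SE; limma adjusted p = 0.931). E2f8, a repressor of the E2F family, was at 172, 228 and 180 in FancgKO_Mdm4Tg and at 230, 216, 267 and 252 in FancgKO (-0.32 ± 0.14, SE; limma adjusted p = 0.931).

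Replication histone genes had a wide spread within each genotype. Of 51 tested genes 2 were higher and 49 lower in FancgKO_Mdm4Tg, with a median log2 difference of -0.30. Their summed count was 5070, 12529 and 7926 in FancgKO_Mdm4Tg and 4453, 8670, 14210 and 16805 in FancgKO. The sums followed the suffix: the 3 libraries ending in d had the 3 highest sums. The median was 0.30 in the low-Xist libraries and -0.03 among the d_2 libraries, so the direction of this list depended on which libraries entered. Hist1h1b, a linker histone, was at 403, 736 and 648 in FancgKO_Mdm4Tg and at 368, 604, 868 and 996 in FancgKO (-0.20 ± 0.31, SE). Within suffix d the median was -0.30 (n = 1 and 2). The part of the suffix in this list's difference was not tested further.

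**Figure D3:**
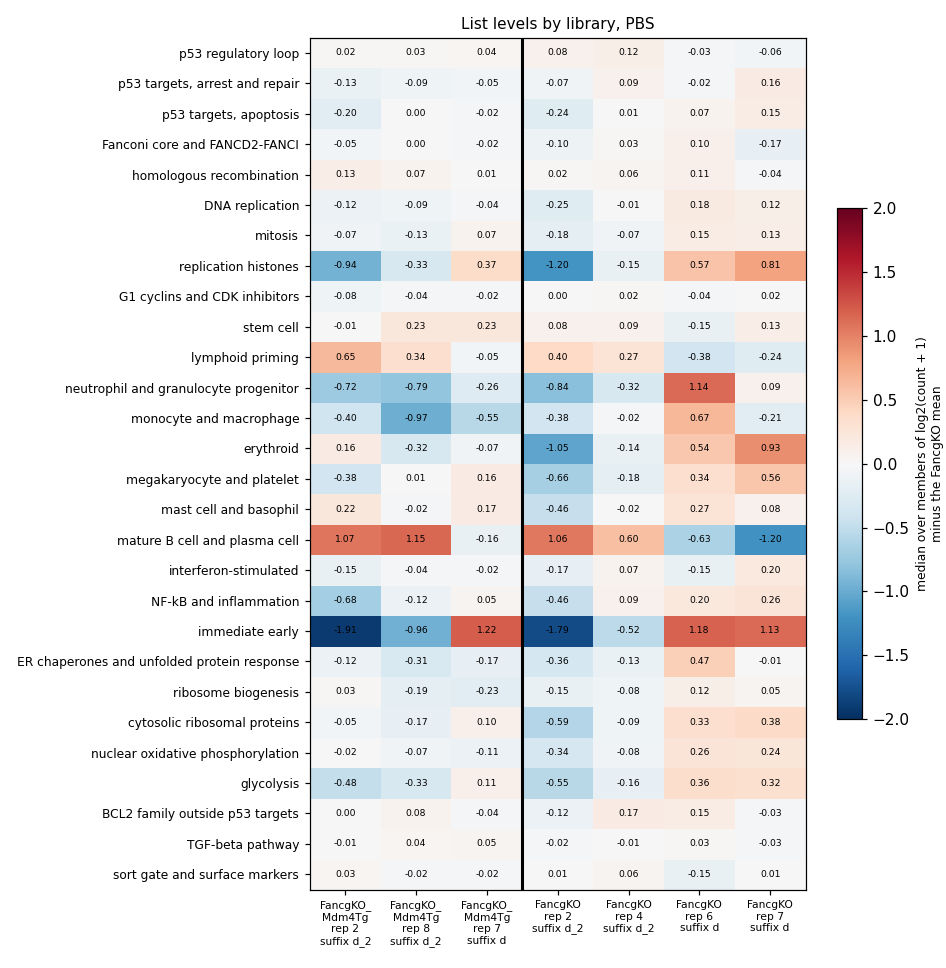
Level of each gene list (rows) in each library (columns, FancgKO_Mdm4Tg left of the black line and FancgKO right of it), as the median over tested members of log2 normalised count plus 1 minus the mean of the 4 FancgKO libraries. The immediate early, replication histone, glycolysis and neutrophil rows differ more between suffixes within a genotype than the p53 and Fanconi rows differ between genotypes.

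Stem cell genes had a small positive median. Of 39 tested genes in the stem cell list 27 were higher and 12 lower in FancgKO_Mdm4Tg, with a median log2 difference of 0.11, which was 0.07 in the low-Xist libraries and 0.05 among the d_2 libraries. No member was called, none had an unadjusted p under 0.05, and the summed counts overlapped, at 13253 to 15543 in FancgKO_Mdm4Tg and 11659 to 13979 in FancgKO. Mllt3, a chromatin reader that sustains stem cell self-renewal in human cells, was at 175, 178 and 179 in FancgKO_Mdm4Tg and at 183, 129, 81.8 and 144 in FancgKO (0.45 ± 0.22, SE). The 3 transgenic libraries were close together and FancgKO replicate 2 lay above them. Hoxa7, a homeobox gene of early progenitors, was at 68.9, 79.3 and 85.0 in FancgKO_Mdm4Tg and at 58.0, 70.8, 55.5 and 55.5 in FancgKO (0.37 ± 0.19, SE). Mecom, named here for its role, a factor that maintains long-term stem cells, was at 209, 211 and 253 in FancgKO_Mdm4Tg and at 222, 186, 94.9 and 170 in FancgKO (0.47 ± 0.41, SE). Cd34, a surface marker of progenitors, was at 1952, 1882 and 2040 in FancgKO_Mdm4Tg and at 1822, 1993, 1716 and 1869 in FancgKO (0.08 ± 0.14, SE). All adjusted p-values in this list were 0.931 or more in limma. In sorted bulk samples, fewer cells of a type and less RNA per cell cannot be told apart.

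Lymphoid and myeloid genes leaned in opposite directions, and the medians of both depended on which libraries entered. The libraries with high Xist are also the only FancgKO libraries with suffix d, so Xist and suffix cannot be told apart within FancgKO. In the lymphoid priming list 23 of 27 tested genes were higher and 4 lower, with a median log2 difference of 0.33. The median was -0.04 in the low-Xist libraries and 0.10 among the d_2 libraries. Satb1, a chromatin organiser of lymphoid progenitors, was at 1297, 816 and 956 in FancgKO_Mdm4Tg and at 1178, 913, 555 and 549 in FancgKO (0.41 ± 0.29, SE). Flt3, the cytokine receptor of multipotent and lymphoid-primed progenitors, was at 1220, 1031 and 993 in FancgKO_Mdm4Tg and at 1084, 1127, 519 and 719 in FancgKO (0.39 ± 0.31, SE). Dntt, the terminal transferase of early lymphocytes, was at 965, 335 and 702 in FancgKO_Mdm4Tg and at 650, 911, 148 and 235 in FancgKO (0.69 ± 0.68, SE). For Satb1 and Dntt the libraries with suffix d were the lowest of their own genotype, with or without the transgene.

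All 17 tested genes of the neutrophil and granulocyte progenitor list had a negative difference, with a median of -0.53, and none was called. That median was 0.01 in the low-Xist libraries and -0.20 among the d_2 libraries. Mpo, myeloperoxidase of granule precursors, was at 1551, 3245 and 1304 in FancgKO_Mdm4Tg and at 1590, 2526, 10485 and 4740 in FancgKO (-1.0 ± 0.62, SE; limma adjusted p = 0.931). Elane, neutrophil elastase, was at 34.5, 97.5 and 79.9 in FancgKO_Mdm4Tg and at 34.5, 106, 898 and 199 in FancgKO (-1.30 ± 1.04, SE). For both genes FancgKO replicate 6 stood highest, and FancgKO replicate 2 was lower than FancgKO_Mdm4Tg replicate 7. Cebpa, the transcription factor of granulocyte commitment, was at 71.6, 99.2 and 68.0 in FancgKO_Mdm4Tg and at 94.0, 106, 167 and 147 in FancgKO (-0.67 ± 0.27, SE; limma adjusted p = 0.931). Its difference was -0.51 among the d_2 libraries and -0.65 among those with suffix d. Without FancgKO replicate 6 the list median was -0.23, and the markers of mature neutrophils Ltf, Ngp and Cd177 were at 0 in all 7 libraries.

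The monocyte and macrophage list had a negative median in all 24 alternative settings tried. These settings draw on the same libraries, and 8 of the 32 lists kept their sign in all of them. Of 15 tested genes 3 were higher and 12 lower in FancgKO_Mdm4Tg, with a median log2 difference of -0.56, and with -0.25 in the low-Xist libraries and -0.44 among the d_2 libraries. The list's median was -0.07 for Mdm4Tg against WT with PBS and -0.0045 after poly(I:C) on FancgKO. No member was called. The summed count was 1223, 1370 and 1051 in FancgKO_Mdm4Tg and 1073, 1615, 2800 and 1738 in FancgKO, so FancgKO replicate 2 lay within the transgenic range. F13a1, a monocyte coagulation factor, was at 188, 154 and 61.2 in FancgKO_Mdm4Tg and at 90.9, 281, 733 and 346 in FancgKO (-1.22 ± 0.75, SE; limma adjusted p = 0.931). Lyz2, lysozyme of myeloid cells, was at 106, 210 and 153 in FancgKO_Mdm4Tg and at 158, 203, 237 and 235 in FancgKO (-0.45 ± 0.20, SE; limma adjusted p = 0.931). Cd68, a lysosomal protein of macrophages, did not overlap between groups, at 13.3, 13.8 and 10.2 in FancgKO_Mdm4Tg and 23.5, 18.6, 32.1 and 19.6 in FancgKO (-0.85 ± 0.36, SE; limma adjusted p = 0.931). It was named after its values were seen, as the 1 member of 15 without overlap, where 1.53% of all genes were lower without overlap.

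The erythroid and megakaryocyte medians changed sign between sets of libraries. The erythroid list had 6 genes higher and 15 lower, with a median log2 difference of -0.10, and with 0.23 in the low-Xist libraries and 0.32 among the d_2 libraries. The megakaryocyte list had 11 higher and 12 lower, with a median of -0.20, and with 0.20 and 0.06 in the same sets. The mast cell and basophil list had 6 higher and 6 lower, with a median of 0.00, and with 0.12 and 0.05 in the same sets. Car2, carbonic anhydrase of red cell precursors, was at 748, 813 and 789 in FancgKO_Mdm4Tg and at 575, 689, 574 and 856 in FancgKO (0.24 ± 0.18, SE). Selp, a platelet adhesion receptor, was at 58.3, 69.9 and 51.0 in FancgKO_Mdm4Tg and at 64.2, 70.8, 112 and 121 in FancgKO (-0.57 ± 0.36, SE). Prss34, a serine protease of mast cells and basophils, was at 37.1, 4.31 and 32.3 in FancgKO_Mdm4Tg and at 1.57, 0, 8.76 and 6.53 in FancgKO (2.35 ± 1.08, SE; limma adjusted p = 0.931). Among the d_2 libraries alone Prss34 was called, at 4.48 ± 0.56 (SE, n = 2 and 2; limma adjusted p = 0.0316), and it was named after that result was seen.

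Markers of mature lymphocytes were scarce and uneven. The mature B cell and plasma cell list summed to 597, 286 and 886 in FancgKO_Mdm4Tg and to 435, 417, 367 and 252 in FancgKO. Of that sum Xbp1 held 265, 195 and 150 in FancgKO_Mdm4Tg and 160, 199, 288 and 183 in FancgKO. In the list 9 of 10 tested genes were positive. The median was 0.41, which was 0.19 in the low-Xist libraries and 0.48 among the d_2 libraries. Igkc, the kappa light chain constant region, was at 111, 13.8 and 372 in FancgKO_Mdm4Tg and at 135, 55.9, 11.7 and 0 in FancgKO (2.27 ± 2.08, SE; limma adjusted p = 0.931). Within each genotype its lowest values were in libraries with suffix d, and Ms4a1, which encodes CD20, was at 0 in all 7. The T and NK cell list, with 3 genes tested, summed to 168 to 205 in FancgKO_Mdm4Tg and 127 to 268 in FancgKO. Nkg7 held most of that sum, at 146 to 172 in FancgKO_Mdm4Tg and 111 to 245 in FancgKO. Cd3e, Cd3g, Trbc2 and Gzma were at 0 in all 7. The list's median was -0.26 in all 7, 0.12 in the low-Xist libraries and 0.04 among the d_2 libraries. The endothelial and stromal list, with 4 genes tested, summed to 928 to 1729 in FancgKO_Mdm4Tg and 1073 to 1744 in FancgKO. Vim held most of that sum, at 588 to 1148 in FancgKO_Mdm4Tg and 678 to 1288 in FancgKO. Pdgfra and Adipoq were at 0 in all 7, and the list's medians were -0.25, -0.08 and -0.39 in the same order. The part of such cells in the results above was not tested.

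**Figure D4:**
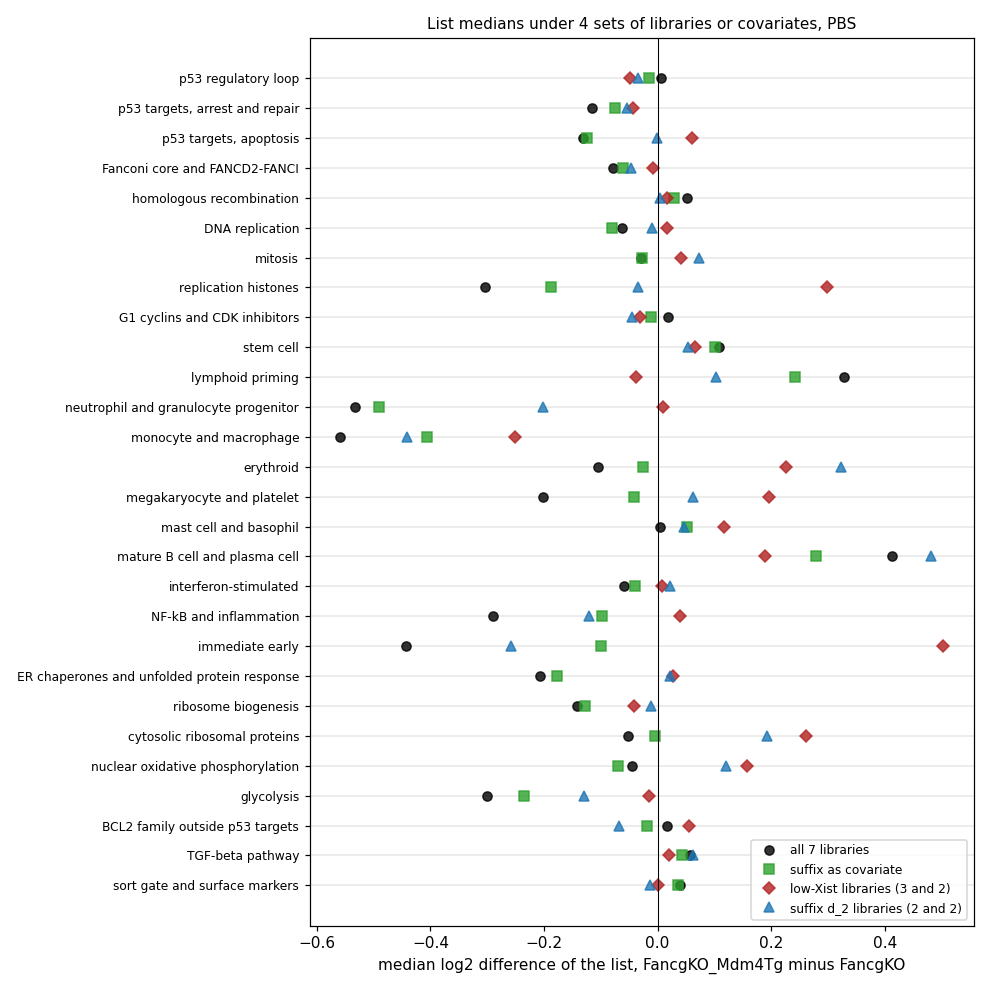
Median log2 difference (FancgKO_Mdm4Tg minus FancgKO) of each gene list for all 7 libraries, with the suffix as a covariate, for the low-Xist libraries (n = 3 and 2) and for the d_2 libraries (n = 2 and 2). The monocyte, glycolysis, ribosome biogenesis, stem cell and arrest and repair medians stay on the same side of 0 in the 4 fits. So do the mature B cell, Fanconi, homologous recombination, mast cell and TGF-beta medians. The immediate early and replication histone medians are among those that change sign.

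Immediate early genes separated the libraries by suffix and not by genotype. These genes encode transcription factors that are induced within minutes of a stimulus. Their summed count was 1093, 13298 and 2181 in FancgKO_Mdm4Tg and 1120, 2602, 12325 and 11202 in FancgKO. The 3 libraries ending in d held 11202 or more, and the 4 ending in d_2 held 2602 or less. Over the 14 PBS libraries of the series the sum was 11202 to 17907 in the 6 with suffix d and 1093 to 2602 in the 8 with suffix d_2. Fos was at 31.8, 2646 and 194 in FancgKO_Mdm4Tg and at 48.6, 229, 2448 and 2009 in FancgKO, and Fosb at 23.9, 3011 and 253 in FancgKO_Mdm4Tg and 58.0, 162, 2442 and 2581 in FancgKO. Of the 23 tested members 4 were higher and 19 lower, with a median log2 difference of -0.44. Suffix d is carried by 1 of 3 transgenic and 2 of 4 FancgKO libraries, and the median was -0.26 within d_2, 0.15 within d and 0.50 in the low-Xist libraries.

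Inflammatory and interferon genes showed no call. The NF-kB and inflammation list had 5 genes higher and 18 lower, with a median log2 difference of -0.29, and with 0.04 in the low-Xist libraries and -0.12 among the d_2 libraries. Il1r1, the interleukin-1 receptor, had the largest positive difference of this list, at 371, 288 and 359 in FancgKO_Mdm4Tg and 318, 278, 121 and 176 in FancgKO (0.69 ± 0.37, SE; limma adjusted p = 0.931). The interferon-stimulated list had 15 higher and 25 lower, with a median of -0.06, and with 0.01 and 0.02 in the same sets. Mx1, an antiviral GTPase, was at 13.3, 6.90 and 5.10 in FancgKO_Mdm4Tg and at 20.4, 11.2, 19.0 and 19.6 in FancgKO (-1.04 ± 0.38, SE; limma adjusted p = 0.931). In the TGF-beta pathway list 11 of 19 genes were higher, with a median of 0.06, and with 0.02 and 0.06 in the same sets. Tgfbr2, the ligand-binding receptor, was at 159, 239 and 218 in FancgKO_Mdm4Tg and at 182, 153, 137 and 173 in FancgKO (0.33 ± 0.15, SE; limma adjusted p = 0.931). Mx1 was named after its values were seen.

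Genes of protein synthesis and folding had more negative than positive differences. The ribosome biogenesis list had 9 genes higher and 31 lower, with a median log2 difference of -0.14, and with -0.04 in the low-Xist libraries and -0.01 among the d_2 libraries. Noc4l, a nucleolar factor for the small ribosomal subunit, was at 55.7, 69.9 and 52.7 in FancgKO_Mdm4Tg and at 68.9, 87.6, 112 and 105 in FancgKO (-0.63 ± 0.22, SE; limma adjusted p = 0.931). Only FancgKO replicate 2 lay below the highest transgenic library for Noc4l. Pes1, a factor for the large subunit, was at 101, 160 and 131 in FancgKO_Mdm4Tg and at 133, 147, 194 and 248 in FancgKO (-0.45 ± 0.20, SE). The cytosolic ribosomal protein list had 30 higher and 50 lower, with a median of -0.05, and with 0.26 and 0.19 in the low-Xist and d_2 libraries. The chaperone and unfolded protein response list had 3 higher and 25 lower, with a median of -0.21, and with 0.03 and 0.02 in the same sets.

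Within the chaperone list, Calr, the calcium-binding chaperone calreticulin, was at 1392, 1462 and 1209 in FancgKO_Mdm4Tg and at 1234, 1440, 2905 and 1914 in FancgKO (-0.39 ± 0.29, SE). Edem1, which directs misfolded glycoproteins to degradation, did not overlap between groups, at 263, 270 and 250 in FancgKO_Mdm4Tg and 273, 328, 370 and 291 in FancgKO (-0.26 ± 0.15, SE). Asns, asparagine synthetase, did not overlap either, at 13.3, 15.5 and 18.7 in FancgKO_Mdm4Tg and 21.9, 20.5, 33.6 and 42.5 in FancgKO (-0.81 ± 0.35, SE). The adjusted p was 0.931 for these 3 genes in limma, and Asns was named after its values were seen. Edem1 and Asns were the 2 of the 28 tested members that were lower without overlap, where 1.53% of all genes were. The glycolysis list had 5 genes higher and 17 lower, with a median of -0.30, and with -0.02 and -0.13 in the low-Xist and d_2 libraries. The nuclear oxidative phosphorylation list had 24 higher and 46 lower, with a median of -0.05, and with 0.16 and 0.12 in the same sets. Of the BCL2 family outside the p53 targets 6 genes were higher and 3 lower, with a median of 0.02, and with 0.06 and -0.07 in the same sets. Of 15 mitochondrially encoded genes only 2 were measured and tested, the ribosomal RNA genes mt-Rnr1 and mt-Rnr2. Their median was 0.06, and 0.02 and 0.14 in the same sets. Over all 32 lists, 772 distinct genes were tested, and 20 of them (2.59%) had an unadjusted p under 0.05, with 6 higher and 14 lower, against 4.47% of all genes.

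**Figure D5:**
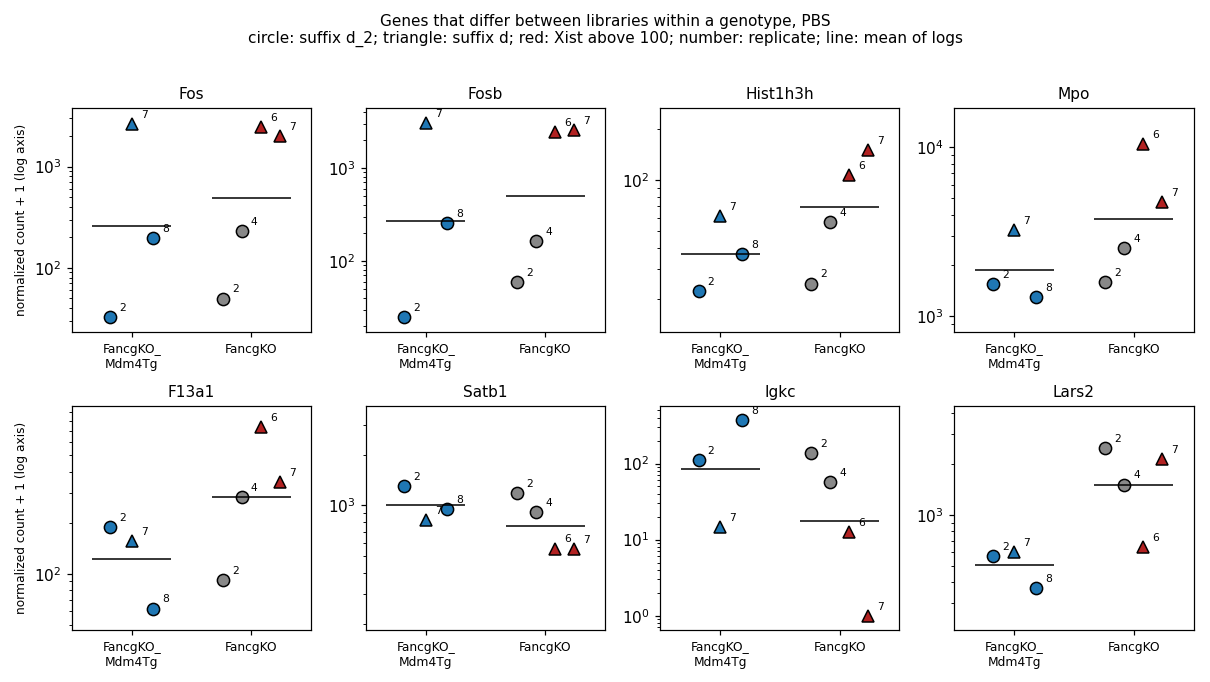
Normalised count plus 1 (log axis) of 8 genes in the 3 FancgKO_Mdm4Tg libraries (left) and the 4 FancgKO libraries (right), with replicate numbers, circles for suffix d_2, triangles for suffix d, red for Xist above 100 and lines at the mean of the logs. Fos and Fosb follow the suffix in both genotypes, and Lars2 is lower in all 3 transgenic libraries than in all 4 FancgKO libraries.

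Of the genes nearest to passing, 8 per direction with a mean normalised count of at least 50 were taken by their unadjusted p, and apart from Mdm4 all had a limma adjusted p of 0.931. Among the lower genes the largest difference was in Lars2, which encodes the leucyl-tRNA synthetase of mitochondria. Its count was 573, 601 and 369 in FancgKO_Mdm4Tg and 2486, 1509, 641 and 2133 in FancgKO. The groups did not overlap, but FancgKO replicate 6 lay just above the highest transgenic library, and the log2 difference was -1.58 ± 0.41 (SE). For the same gene the difference was -0.87 for Mdm4Tg against WT with PBS and 0.08 for FancgKO_Mdm4Tg against FancgKO after poly(I:C). Gm15564 was at 191, 103 and 86.7 in FancgKO_Mdm4Tg and at 783, 401, 145 and 392 in FancgKO (-1.60 ± 0.56, SE). The ribosomal RNA gene CT010467.1 was at 95895, 24849 and 19702 in FancgKO_Mdm4Tg and at 96807, 157689, 13783 and 84170 in FancgKO. In FancgKO replicate 6 Lars2, Gm15564 and CT010467.1 were all at the lowest value of that genotype. Gm42418, a noncoding RNA gene that overlaps CT010467.1 on the opposite strand, did not share this, at 12050, 41769 and 25918 in FancgKO_Mdm4Tg and 25296, 26638, 41821 and 59682 in FancgKO. Whether the ribosomal RNA content of a library has a part in the Lars2 values was not tested. Gm15564, CT010467.1 and Gm42418 were named after their values were seen.

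Of the other 7 lower genes, 6 did not overlap between groups, against 1.53% of all genes, but a choice by the smallest p favours such genes and the count supports nothing. Tmem229b, which encodes a transmembrane protein, was at 151, 150 and 133 in FancgKO_Mdm4Tg and at 190, 268, 285 and 225 in FancgKO (-0.72 ± 0.20, SE). Vav2, a guanine nucleotide exchange factor, was at 31.8, 47.4 and 59.5 in FancgKO_Mdm4Tg and at 81.5, 78.2, 71.6 and 88.2 in FancgKO (-0.82 ± 0.23, SE). Rexo4, a putative RNA exonuclease, was at 45.1, 83.7 and 57.8 in FancgKO_Mdm4Tg and at 105, 114, 93.5 and 101 in FancgKO (-0.77 ± 0.23, SE). These genes separated the genotypes in libraries of both suffixes. Pde5a, a cyclic GMP phosphodiesterase, was at 31.8, 50.9 and 39.1 in FancgKO_Mdm4Tg and at 56.4, 61.5, 76.0 and 105 in FancgKO (-0.85 ± 0.25, SE). Slc36a1, a lysosomal amino acid transporter, and Gpd1l, a relative of glycerol-3-phosphate dehydrogenase, had log2 differences of -0.61 ± 0.19 and -0.42 ± 0.14 (SE). Med17, a subunit of the Mediator complex, overlapped between groups at -0.48 ± 0.16 (SE). For Mdm4Tg against WT with PBS, Vav2 was at 0.29, Tmem229b at 0.04 and Rexo4 at 0.12, against -0.82, -0.72 and -0.77 on FancgKO. In that contrast Pde5a was at -0.34, Slc36a1 at -0.06, Gpd1l at 0.03 and Med17 at 0.0046. All these genes were picked by their p on FancgKO, and that effect enters the difference between backgrounds. The choice therefore favours large differences between backgrounds, and their size supports nothing. The differences between backgrounds were -1.11 ± 0.33 for Vav2, -0.77 ± 0.28 for Tmem229b and -0.89 ± 0.33 for Rexo4 (SE; limma adjusted p = 1.00 for each).

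Among the higher genes after Mdm4, chosen in the same way, 6 of 7 did not overlap between groups, against 1.58% of all genes. Nsun6, a methyltransferase of transfer RNA and messenger RNA, was at 90.2, 81.1 and 74.8 in FancgKO_Mdm4Tg and at 64.2, 39.1, 68.7 and 39.2 in FancgKO (0.67 ± 0.21, SE). Stk3, the Hippo pathway kinase MST2, was at 127, 120 and 128 in FancgKO_Mdm4Tg and at 87.7, 85.7, 89.1 and 101 in FancgKO (0.46 ± 0.16, SE). Both genotypes were tight for Stk3, and the gap between them was wider than the range within either. Mfsd6, a transporter-like membrane protein gene, was at 114, 102 and 93.5 in FancgKO_Mdm4Tg and at 81.5, 76.4, 58.4 and 58.8 in FancgKO (0.59 ± 0.21, SE). Zscan29, a zinc finger gene, was at 98.1, 79.3 and 85.0 in FancgKO_Mdm4Tg and at 62.7, 72.7, 46.7 and 55.5 in FancgKO (0.56 ± 0.21, SE). Gm22009, annotated as a small Cajal body RNA, was at 589, 372 and 724 in FancgKO_Mdm4Tg and at 343, 296, 288 and 330 in FancgKO (0.79 ± 0.26, SE). Gm38394 and Mndal had log2 differences of 0.56 ± 0.20 and 0.44 ± 0.17 (SE), and Mndal, an interferon-inducible nuclear protein gene, was the member that overlapped. Of these 7 genes Mfsd6, Gm38394 and Mndal lie on chromosome 1, as Mdm4 does. The share of all tested genes on that chromosome was not counted, so their number there supports nothing. Gm38394, whose groups did not overlap, lies at 133619940 to 133661318, and the Mdm4 interval ends at 133030561. Gm38394 therefore falls outside the window used above for genes near Mdm4. Whether its position has a part in its difference was not tested. With PBS on the wild-type background the log2 differences were 0.07 for Nsun6, 0.12 for Stk3 and 0.10 for Mfsd6. They were 0.14 for Gm38394, 0.18 for Mndal, -0.10 for Zscan29 and -0.24 for Gm22009. Since these genes were picked by their p on FancgKO, smaller values on the other background are favoured by the choice.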

How the data were processed

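Polyadenylated RNA was prepared with the CATS RNA-seq kit, per the labels' protocols. STAR and mm10 are named per the submitters' processing notes; the counter, its strand setting and the normalization tool are not given in the sources used here. The deposited table gives a signal for each gene in each library, which the authors name as normalized counts in the file name. Every value was a whole multiple of what 1 read is worth in its library, which gave back whole reads for 100% of values (relative tolerance 1e-06). Depth was 807686 to 8229715 reads, and shallow libraries limit low genes most. Symbols came from the file for 16217 of 26267 genes and for 10006 from the GENCODE annotation.

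limma 3.58.1 under R 4.3.3 fitted 8 group means over 24 libraries to log2 of the normalized count with 1 added, using its mean-variance trend, for genes with at least 10 in at least 2 libraries. P-values were adjusted with Benjamini-Hochberg over 12628 genes at 0.05. The fit was checked on simulated counts. edgeR 4.0.16 and DESeq2 1.42.0 used the recovered reads. Lists (32, with 940 entries) are described by counts and medians, with no test. The members and lists were chosen with earlier results of these data known. Genes named were Mdm4, Mdm2, Trp53, Cdkn1a, Fancg, Xist, calls, the 8 smallest p per direction at a mean of at least 50, and up to 4 members per list. Exceptions are marked in the text as named after their values were seen; further genes named for their role were Elane, Dntt, Bax, Bbc3, Ly6a, Mecom and Fancd2.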

Additional observations from a re-analysis of the deposited data

Results flagged for a closer look

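Groups of 3 libraries were too small for a check of single outlying libraries, so 97 checks were made in the 4 FancgKO libraries with PBS, over the genes named and the summed lists. In 2 of them a library stood far from the rest by Dixon's ratio of gap to range at its 95% critical value, and chance alone flags about 1 in 20. For Hoxa7 the ratio was 0.84, with FancgKO replicate 4 at 70.8 and the other 3 FancgKO libraries at 55.5 to 58.0, while FancgKO_Mdm4Tg lay at 68.9 to 85.0. For the summed homologous recombination list the ratio was 0.859, with FancgKO replicate 7, the shallowest library, at 3760 and the other 3 FancgKO libraries at 4077 to 4129, while FancgKO_Mdm4Tg lay at 4040 to 4415. No difference between backgrounds or treatments passed its test.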

How the results depend on the processing

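Mdm4 was called under all 24 alternatives, at log2 differences of 2.35 (low-Xist libraries) to 2.67 (quantile normalization), and 2.48 to 2.66 when each library was left out. The count of called genes was 1 except for 2 with DESeq2 (Xist), 2 among the d_2 libraries (Prss34) and 1 to 2 when each library was left out. The 2 arose without FancgKO replicate 2, where Card6 was added at 3.25 (limma adjusted p = 0.0442). For the differences between backgrounds and between treatments the count was 0 under every alternative.

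The replicate numbers 2 and 7 occur in both groups. Same-numbered libraries correlated at 0.257 and 0.323 after group means were removed, but 2 shared numbers are too few to pair them. These same-numbered libraries also share a suffix, so number and suffix cannot be told apart in them. Differently numbered libraries of the same suffix correlated at 0.084 to 0.285 between the groups. Libraries of different suffix correlated at -0.405 to -0.084. The fit with the replicate block called 1 gene in limma, 904 had an unadjusted p under 0.05, Mdm4 was at 2.61, Cdkn1a at 0.17 and Fos at 0.12.

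Signs of uncalled genes turned mostly in the low-Xist libraries and with Xist as the only covariate. Neither fit balances the suffix between genotypes, so a turn there cannot be assigned to Xist. In the low-Xist libraries Trp53inp1 was at -0.041, Rrm2b -0.063, Pidd1 0.063, Hist1h1b 0.29, Flt3 -0.038, Satb1 -0.047, Ctsg 0.012, Igkc -0.043, Fos 1.27, Fosb 1.45 and Calr 0.018. With Xist as a covariate Trp53inp1 was at -0.050, Rrm2b -0.085, Hist1h1b 0.14, Cd34 -0.016, Flt3 -0.048, Satb1 -0.026, Igkc -0.41, Fos 1.69 and Fosb 1.77. Among the d_2 libraries Hist1h1b was at 0.12 and Flt3 at -0.0062, and with suffix and Xist together Flt3 was at -0.0077. When each library was left out Mdm2 ran from -0.043 to 0.022, Ube2t from -0.012 to 0.65, Hist1h1b from -0.48 to 0.060, Fos from -2.61 to 0.56 and Fosb from -2.64 to 0.82. The cause was not tested. Of the 32 list medians 24 changed sign under at least 1 alternative and 8 did not. TMM and quantile scaling turned 1 list, mast cell and basophil. An Xist covariate cannot give a value for Xist itself.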
